A study of Homo sapiens with 12 samples.

Results

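The positive transcription elongation factor P-TEFb, the 7SK ribonucleoprotein that stores it in an inactive form and the super elongation complex that carries it to chromatin were followed in MOLT4 cells exposed to inhibitors of the P-TEFb kinase. The 10 members were chosen by name: the cyclins CCNT1 and CCNT2, the 7SK components RN7SK, MEPCE, LARP7, HEXIM1 and HEXIM2, and the super elongation complex genes AFF1, AFF4 and ELL2. Of these, 3 were found by their NCBI gene ID among the 5759 genes analysed, namely RN7SK (gene ID 125050), MEPCE (56257) and CCNT1 (904), and the other 7 are not analysed here. The 5759 genes are 20.3% of the 28395 tests that the false discovery rates of the authors' deposited table imply, and the members' 3 of 10 is read against that share.

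P-TEFb is the kinase CDK9 bound to a cyclin T, and it releases paused RNA polymerase II into productive elongation by phosphorylating the polymerase and its pausing factors. Much of it is held inactive by HEXIM proteins on 7SK, an abundant noncoding RNA made by RNA polymerase III, whose 5′ end is capped by the methyltransferase MEPCE and whose 3′ end is bound by LARP7. In cells whose transcription is blocked, P-TEFb is known to leave this complex, and the freed RNA is taken up by other RNA-binding proteins.

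MOLT4 is an established line of T lymphoblasts from an acute lymphoblastic leukaemia, described in the labels as wild type. The 12 samples formed 4 groups of 3: DMSO vehicle for 6 h, compound 955 at 0.1 µM for 1 h, the same dose of 955 for 6 h, and SNS-032 for 6 h at a dose of 1 µM. SNS-032 inhibits CDK9 and other cyclin-dependent kinases. Compound 955 is built on SNS-032 linked to piperlongumine, an electrophile from pepper plants, and was made to have its target protein degraded. The study compared 955 with this parent inhibitor. No vehicle group was taken at 1 h, so in the comparison of 955 at 1 h with DMSO the treatment and the time in culture cannot be told apart. The labels do not say whether the 3 samples of a group came from separate cultures, so the p-values measure the spread between these samples, which may be technical.

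The authors' deposited table gives each gene's log2 fold change against DMSO, its average level over all samples (log2 CPM, that is, relative to each library's total), an F statistic and a false discovery rate (FDR), but values of single samples were not used here and the sequencing depth is unknown. A gene was called changed when its FDR was under 0.05 and it moved by 1 or more on the log2 scale. Of the 5759 genes, 5757 met both criteria in at least 1 of the 3 comparisons. That RN7SK, MEPCE and CCNT1 each passed somewhere therefore says nothing about them. Their direction was not fixed by that, but their timing partly was. A gene that failed at 1 h, as RN7SK and CCNT1 did, could hardly be analysed here without passing at 6 h. Standard errors (SE) were implied by the fold change and F, follow the authors' model and are not SDs of replicates, and 95% intervals were built from them. Percentages of the DMSO level and folds are the same fold changes on a linear scale. Because all values are relative to a library's total, they are changes in a gene's share of the library. Amounts of RNA per cell and numbers of cells cannot be read from them. Of 18 T lymphoblast markers 6 were among the genes analysed, with average levels from 3.74 to 7.60 log2 CPM in the authors' deposited table, the highest being DNTT (7.60) and CD3G (7.13). Of 4 myeloid markers 0 were among the genes analysed, which says nothing of their expression, since the table holds almost only genes that changed.

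RN7SK is the only noncoding RNA among the members. The ends of its GENCODE 29 model are shown because the proteins above act at or near the ends of the RNA. It is also not a polyadenylated mRNA, while the libraries were made with an mRNA kit. The RNA is 328 bases long in GENCODE 29, a single exon on the plus strand of chromosome 6, and its longest run of A is 3 bases. In RefSeq (GRCh38.p14) it is 332 bases long (52995620 to 52995951) and reaches past the GENCODE model at both ends. The outermost bases of the RefSeq model are therefore not in the stretches printed. Capitals mark GATC, which occurs 3 times in the whole GENCODE model, at positions 12, 41 and 63 from the first base of that model. All 3 lie in the first 110 bases. Repeated GATC (GAUC in the RNA) in the 5′ hairpin is a known part of the HEXIM binding site. Which of the 3 matches belong to that site was not tested. The first 110 bases span chr6:52995621-52995730 and the last 60 bases span chr6:52995889-52995948 (GRCh38, plus strand).
RN7SK first bases: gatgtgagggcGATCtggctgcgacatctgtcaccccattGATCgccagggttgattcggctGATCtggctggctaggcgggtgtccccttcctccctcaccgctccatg
RN7SK last bases: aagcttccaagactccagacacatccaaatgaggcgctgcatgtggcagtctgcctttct

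At 6 h, the 7SK RNA rose and the mRNAs of its capping enzyme and of cyclin T1 fell with both compounds. RN7SK was 9.97-fold above DMSO with 955 and 11.2-fold with SNS-032 under the authors' scaling. Scaled on mitochondrial mRNAs, as described below, its log2 fold changes of 3.32 and 3.49 became 1.25 and 1.14. MEPCE was at 20.3% of the DMSO level with 955 and 17.1% with SNS-032. CCNT1 was at 40.3% and 34.7%. After 1 h of 955, MEPCE alone of the 3 had passed the threshold, at 37.3% of the DMSO level.

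**Figure D1:**
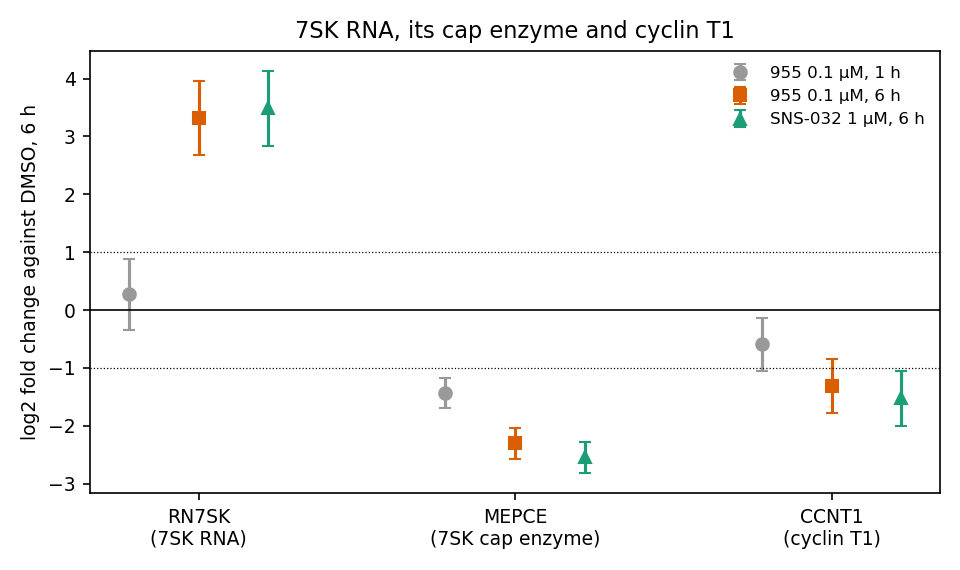
Log2 fold change against DMSO at 6 h (vertical axis) for RN7SK, MEPCE and CCNT1, with 955 at 1 h (circles), 955 at 6 h (squares) and SNS-032 at 6 h (triangles); bars are 95% intervals from the implied standard errors and dotted lines mark the fold-change bound of 1. RN7SK lies near 0 at 1 h and above 3 at 6 h, MEPCE lies below -1 in all 3 comparisons, and CCNT1 lies below -1 at 6 h only.

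RN7SK, the scaffold of the inhibitory complex, had a log2 fold change of 0.27 after 1 h of 955 (FDR 0.927) in the authors' deposited table. After 6 h it was 3.32 with 955 (FDR 1.73e-07) and 3.49 with SNS-032 (FDR 9.12e-08) in the authors' deposited table. The implied SEs were 0.29, 0.30 and 0.30. The 95% interval at 1 h ran from -0.34 to 0.89, so a change as large as that at 6 h lay outside it. At 6 h the intervals ran from 6.39-fold to 15.5-fold with 955 and from 7.18-fold to 17.6-fold with SNS-032. Of the 5759 genes, 2.36% had higher values with 955 and 2.21% with SNS-032, ranks of 137 and 128 from the top. The difference between 6 h and 1 h of 955 was 3.05 on the log2 scale (SE 0.30, adjusted p 1.17e-07, approximate t test on the authors' model with Benjamini-Hochberg adjustment over 5759 genes). RN7SK did not pass at 1 h, so it is among the genes analysed through its values at 6 h. The contrast uses those same values, and its p-value is not independent support for a late rise. Between the compounds at 6 h, 955 minus SNS-032 was -0.17 (95% interval -0.81 to 0.47, adjusted p 0.861), which leaves room for a difference of 1.39-fold in one direction and a level 0.569 times as high in the other.

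GENCODE 29 lists 293 pseudogenes named after it, none of which is among the genes analysed, and how reads matching several copies were counted is not given in the sources used here. Its average level was 4.33 log2 CPM in the authors' deposited table, and how well an RNA of this kind was captured was not tested.

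MEPCE, the enzyme that caps and stabilises 7SK, was past the threshold at 1 h, when RN7SK and CCNT1 were not. Its log2 fold change was -1.42 after 1 h of 955 (FDR 5.32e-07), -2.30 after 6 h of 955 (FDR 2.01e-12) and -2.55 with SNS-032 (FDR 3.16e-13) in the authors' deposited table. The implied SE was 0.13 in all 3 comparisons, against medians over all genes analysed of 0.23 at 1 h and 0.24 at 6 h. The interval at 1 h ran from 31.1% to 44.6% of the DMSO level. The fall at 1 h was 61.9% of the fall at 6 h of 955 on the log2 scale. That share depended on the scaling, with -2.10 at 1 h and -4.37 at 6 h under mitochondrial scaling, described below. The further fall to 6 h was -0.88 (95% interval -1.14 to -0.61, adjusted p 1.63e-06), past the threshold for p but under the bound of 1.

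By F statistic MEPCE ranked 4 of 5759 in the comparison at 1 h, and by log2 fold change it ranked 215 from the lowest. At 6 h its ranks by F were 68 with 955 and 62 with SNS-032. Of the 755 genes whose average level was at least that of MEPCE (6.52 log2 CPM in the authors' deposited table), none had a lower log2 fold change or a larger F at 1 h; this subset was chosen after its values were seen.

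CCNT1 encodes the major cyclin partner of CDK9. At 1 h of 955 its log2 fold change was -0.59 (FDR 0.180) in the authors' deposited table, short of the threshold, with an interval from -1.05 to -0.13. At 6 h CCNT1 was called lower with both compounds, at -1.31 with 955 (FDR 0.000121) and -1.53 with SNS-032 (FDR 2.38e-05) in the authors' deposited table. The implied SE was 0.22 in all 3 comparisons. The interval for 955 at 6 h ran from 29.2% to 55.6% of the DMSO level and that for SNS-032 from 25.1% to 48.1%. The value at 1 h was 45.1% of that at 6 h of 955 on the log2 scale. That share depended on the scaling, with -1.27 at 1 h and -3.38 at 6 h under mitochondrial scaling, described below. The difference between the times was -0.72 (SE 0.22, adjusted p 0.00596), again under the bound of 1. CCNT1, too, is analysed through its values at 6 h, which this contrast also uses. At 6 h, 36.5% of all genes analysed were lower than CCNT1 with 955 and 31.6% with SNS-032.

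**Figure D2:**
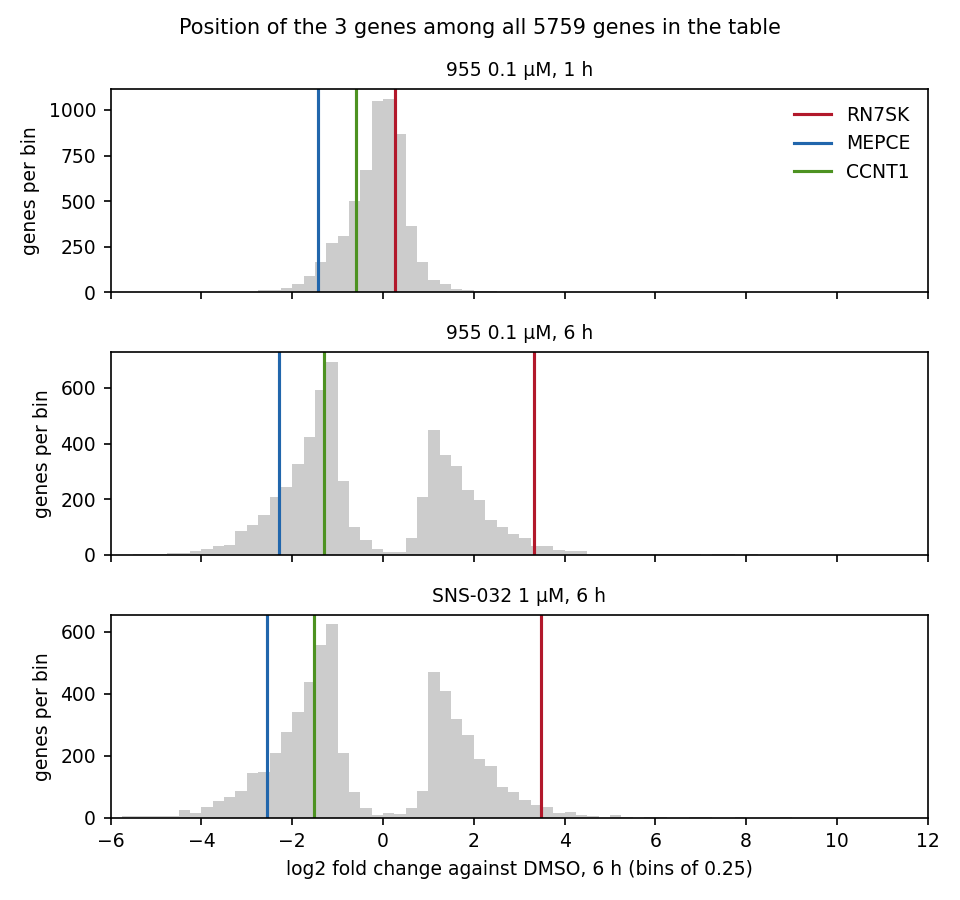
Number of genes (vertical axis) by log2 fold change against DMSO at 6 h (horizontal axis, bins of 0.25) for all 5759 genes analysed, 1 panel per treated group, with vertical lines at RN7SK, MEPCE and CCNT1. MEPCE sits in the lower tail at 1 h, RN7SK moves from the main body at 1 h to the upper tail at 6 h, and CCNT1 lies within the body of falling genes at 6 h.

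Read against all genes analysed, the counts were as follows. At 1 h of 955, 1 of the 3 members was called lower, against 7.71% of all genes analysed, and 0 were called higher, against 0.729%. Without the fold bound the count at 1 h was the same. At 6 h of 955, 1 was higher and 2 were lower, against 35.2% and 50.1%. With SNS-032 the counts were again 1 and 2, against 37.8% and 52.5%. Nothing is read from the counts at 6 h, since most genes analysed passed there.

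The compounds were given at different doses, so their contrast compares these treatments and not the structures. Of the 3 members, 0 were called different between 955 and SNS-032 at 6 h by the approximate contrast, and 0 had an unadjusted p under 0.05. Among all genes analysed, 1.11% were called with the bound of 1 on the log2 difference and 2.73% by adjusted p alone. MEPCE differed by 0.25 (95% interval -0.02 to 0.51, p 0.0718, adjusted p 0.397) and CCNT1 by 0.21 (-0.25 to 0.68, adjusted p 0.729), both towards a smaller fall with 955. In linear terms MEPCE with 955 was between 0.984 and 1.43 times its level with SNS-032, and CCNT1 between 0.840 and 1.60 times. Under scaling on mitochondrial mRNAs, described below, the difference for MEPCE was 0.52 (adjusted p 0.0122), still under the bound of 1. Between 6 h and 1 h of 955, where 62.6% of genes were called with the bound and 84.7% by adjusted p alone, RN7SK passed with the bound and all 3 members by adjusted p alone.

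The direction of RN7SK at 6 h did not depend on the scaling, but its size did. The 13 mRNAs encoded by mitochondrial DNA, which RNA polymerase II does not make, had median log2 fold changes of 0.67 for 955 at 1 h, 2.07 for 955 at 6 h and 2.35 for SNS-032, computed from the authors' deposited table, and subtracting these gives a second scale. On it RN7SK was 1.25 above DMSO with 955 (adjusted p 0.00113) and 1.14 with SNS-032 (adjusted p 0.0023), and at 1 h it was -0.40 (adjusted p 0.227). The p-values on this scale keep the same SEs and treat the subtracted median as exact, so its own uncertainty is left out. MEPCE moved to -2.10, -4.37 and -4.89 in the order 955 at 1 h, 955 at 6 h and SNS-032. CCNT1 moved to -1.27 at 1 h, where it then passed the threshold (adjusted p 8.76e-05), and to -3.38 and -3.87 at 6 h. On this scale 1766 of all 5759 genes passed as lower at 1 h of 955, 3825 at 6 h of 955 and 4151 with SNS-032. Those passing as higher were 16, 142 and 116. The call of CCNT1 at 1 h is therefore not read as particular to it. Which scale lies nearer to RNA per cell was not tested.

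**Figure D3:**
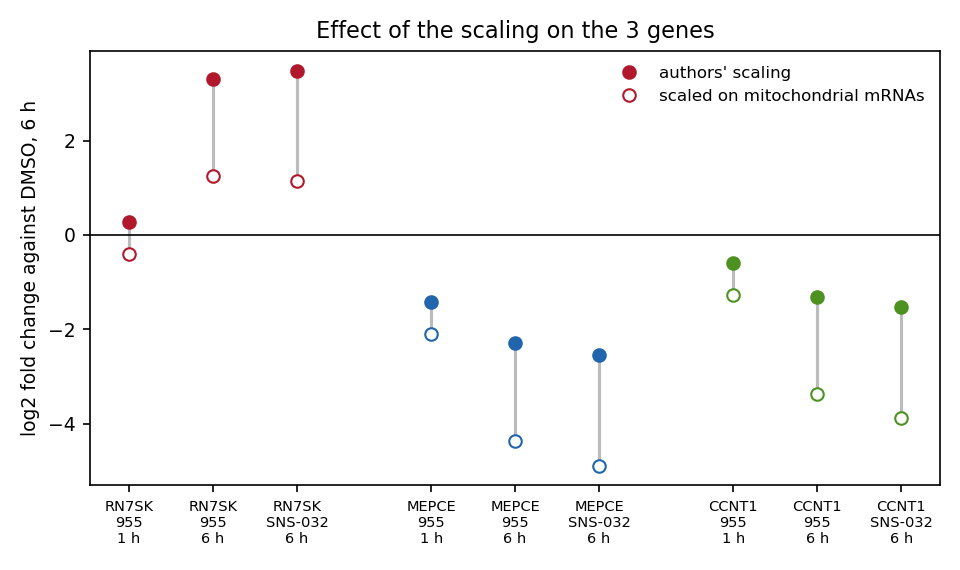
Log2 fold change against DMSO at 6 h (vertical axis) for RN7SK, MEPCE and CCNT1 in the 3 comparisons, under the authors' scaling (filled points) and after subtraction of the median of the 13 mitochondrial mRNAs (open points). RN7SK stays above 0 at 6 h under both scalings and changes sign at 1 h, while MEPCE and CCNT1 stay below 0 throughout.

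In the genome, MEPCE lies on the plus strand of chromosome 7 (100428790 to 100434126 in GENCODE 29, 4 annotated transcripts, the longest with 4 exons) and CCNT1 on the minus strand of chromosome 12 (48688458 to 48716998, 6 transcripts, the longest with 9 exons). CCNT1 spans 28541 bases and MEPCE 5337. The start of MEPCE meets that of ZCWPW1, a histone reader gene on the opposite strand, and the models overlap by 203 bases in GENCODE 29 but lie 86 bases apart in RefSeq (GRCh38.p14). In the authors' deposited table the log2 fold changes of ZCWPW1 were 0.31 at 1 h (FDR 0.828), 1.14 at 6 h of 955 (FDR 0.00262) and 1.06 with SNS-032 (FDR 0.00483). Under mitochondrial scaling ZCWPW1 was at -0.37, -0.93 and -1.29. Whether the counting used strand is not given in the sources used here, so reads in the shared stretch could have been assigned to either gene.

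The genes whose 3 log2 fold changes lay nearest to each member were found by Euclidean distance over the 3 comparisons. For RN7SK they were JAM3 (distance 0.13) and WNT10B (0.14), for MEPCE ZSWIM3 (0.10) and EPOR (0.11), and for CCNT1 FASTKD2 (0.04) and TAF5L (0.07). The comparisons share their DMSO samples, and with 3 values per gene the likeness is a description only.

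The wider machinery around P-TEFb was followed in 6 lists holding 79 genes, 31 of them among the genes analysed. Over all 5759 genes of the authors' deposited table the median log2 fold change was -0.05 at 1 h, -1.03 at 6 h of 955 and -1.07 with SNS-032. The lists' counts at 6 h stand against 50.1% of all genes analysed called lower and 35.2% called higher with 955, and 52.5% and 37.8% with SNS-032. Since almost every gene analysed passed somewhere, these counts describe the listed genes only and nothing particular to a list is read from them. At 1 h of 955 only ELL and RPPH1 of the 31 passed the threshold under the authors' scaling. Under mitochondrial scaling RPPH1 did not pass there. Those passing as lower were then 4 elongation complex partners, 1 release gene, 1 of the 7SK-binding proteins and relatives, 2 pausing and elongation factors and 1 RNA polymerase III transcript. Of all 5759 genes, 1766 passed as lower on that scale.

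Among kinases of elongation and initiation, 3 of 7 genes were analysed, all from the CDK-activating kinase that also phosphorylates the polymerase. At 6 h of 955, 2 of the 3 fell, CCNH (cyclin H) to 26.7% and the assembly factor MNAT1 to 43.1% of the DMSO level. All 3 fell with SNS-032, the third being CDK7, whose average level in the authors' deposited table was 0.16 log2 CPM. The median log2 fold change of the 3 was -0.02 at 1 h, -1.21 at 6 h of 955 and -2.11 with SNS-032.

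Of partners in the super and little elongation complexes, 7 of 11 were analysed. At 6 h of 955 4 fell and 0 rose (median -1.11), and with SNS-032 4 fell and 1 rose (median -1.03). ICE1, the scaffold of the little elongation complex that serves small nuclear RNA genes, was at 38.5% of the DMSO level with 955 and MLLT1, a chromatin reader of the super elongation complex, at 39.3%. AFF3, a relative of AFF1 and AFF4, was the riser with SNS-032, at a log2 fold change of 1.13 (FDR 0.0249) in the authors' deposited table, and fell under mitochondrial scaling to -1.21 (adjusted p 0.0054).

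ELL, an elongation factor related to ELL2, was the 1 gene of these lists called lower at 1 h. In the authors' deposited table its log2 fold change was -1.13 at 1 h (FDR 0.00034), -0.68 at 6 h of 955 (FDR 0.00449) and -0.48 with SNS-032 (FDR 0.0429). The difference between 6 h and 1 h was 0.45 (SE 0.18, adjusted p 0.023), so ELL was closer to DMSO at 6 h, in the direction opposite to MEPCE and CCNT1. This order depended on the scaling, since mitochondrial scaling put ELL at -1.80 at 1 h and -2.75 at 6 h of 955. ELL passed the threshold at 1 h only, so it is analysed through a value that the contrast also uses.

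**Figure D4:**
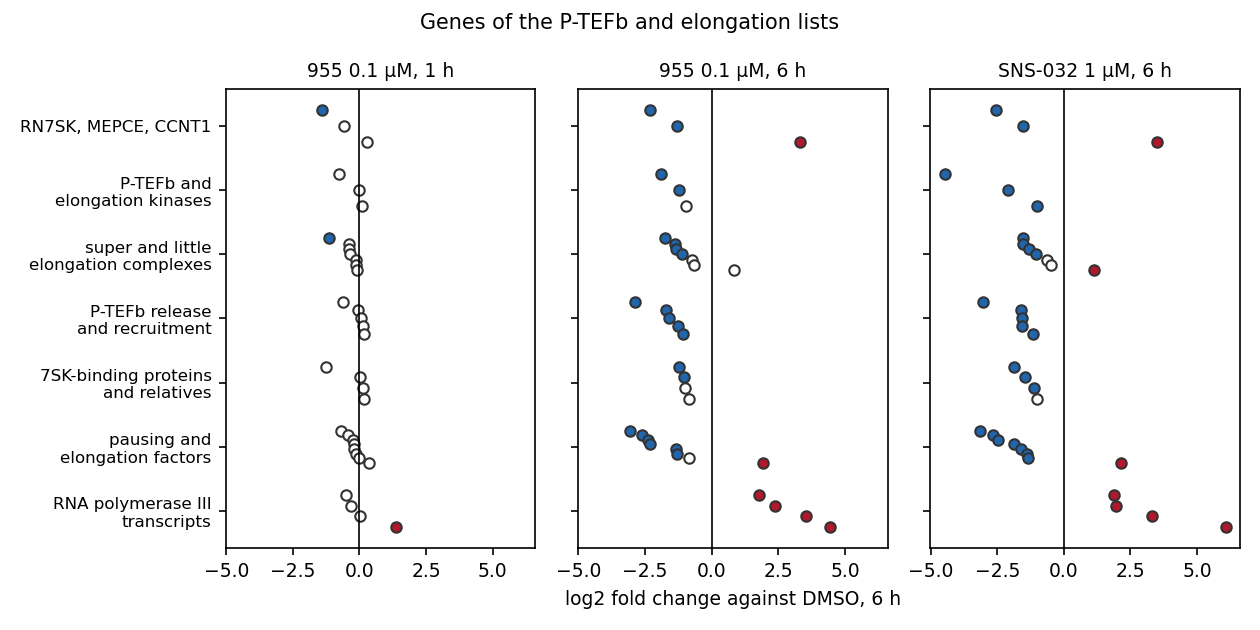
Log2 fold change against DMSO at 6 h (horizontal axis) of each analysed gene, by list (vertical axis), 1 panel per treated group; filled points passed the threshold (red higher, blue lower) and open points did not. At 1 h only MEPCE, ELL and RPPH1 are filled; at 6 h RN7SK, the RNA polymerase III transcripts, TCEA2 and AFF3 lie right of 0 and all other genes left of it.

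Of 14 genes for release and recruitment of P-TEFb, 5 were analysed, and all 5 fell with both compounds at 6 h (medians -1.60 with 955 and -1.57 with SNS-032), where 50.1% and 52.5% of all genes analysed did. They included the helicase DDX21 and the phosphatase PPM1G, which free P-TEFb from 7SK, at 33.0% and 30.4% of the DMSO level with 955. TRIM28, a corepressor that brings the 7SK complex to promoters, was at 46.8% and the splicing factor SRSF1 at 41.3%. The lowest was NUFIP1, also known for assembly of small nucleolar particles, at 13.7%. At 1 h 0 of the 5 passed, with a median of 0.04.

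Of 8 proteins that bind 7SK or are relatives of MEPCE and LARP7, 4 were analysed. With 955 at 6 h 2 fell, the RNA-binding protein SYNCRIP to 42.3% and the helicase DHX9 to 48.0% of the DMSO level. SSB (La), which binds the ends of new RNA polymerase III transcripts, was at 50.2% of the DMSO level with 955, just short of the bound (FDR 3.14e-06 in the authors' deposited table), and passed with SNS-032 at 46.4% (FDR 6.29e-07). BCDIN3D, a methyltransferase related to MEPCE, had -1.25 at 1 h (FDR 0.0825) and -0.86 at 6 h of 955 (FDR 0.123) in the authors' deposited table and passed with SNS-032 at -1.89 (FDR 0.000727). With SNS-032 3 of the 4 fell.

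Of 20 pausing and elongation factors, 8 were analysed. At 6 h of 955, 6 fell and 1 rose (median -1.84), against 50.1% and 35.2% of all genes analysed. With SNS-032 7 fell and 1 rose (median -1.74), against 52.5% and 37.8%. In the PAF1 complex, which travels with elongating polymerase, PAF1 was at 11.9%, CTR9 at 16.3% and CDC73 at 39.1% of the DMSO level with 955. Its subunit LEO1 had a log2 fold change of -2.32 (FDR 0.00034) in the authors' deposited table. IWS1, a partner of the elongation factor SPT6, was at 19.2% and NELFA, a subunit of the pausing factor NELF, at 41.1%. TCEA2, a relative of the transcript cleavage factor TFIIS, rose to 3.76-fold with 955 and 4.39-fold with SNS-032, and under mitochondrial scaling was at -0.16 (adjusted p 0.279) and -0.21 (adjusted p 0.153). At 1 h 0 of the 8 passed.

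RNA polymerase III transcripts were followed because RN7SK is one of them, and 4 of 19 were analysed. All 4 were higher at 6 h of 955 (median 2.95) and with SNS-032 (median 2.62), where 35.2% and 37.8% of all genes analysed were. RPPH1, the RNA of RNase P, was 21.7-fold above DMSO with 955 and 67.3-fold with SNS-032, and BCYRN1, the brain cytoplasmic RNA BC200, 11.5-fold and 9.78-fold. At 1 h of 955 RPPH1 was already called higher, at 1.36 (FDR 0.00757) in the authors' deposited table. This call depended on the scaling, since mitochondrial scaling put RPPH1 at 0.69 at 1 h (adjusted p 0.0455), under the bound of 1. RN7SL1 and RN7SL2, near-identical copies of the signal recognition particle RNA between which reads can be split, were 5.19-fold and 3.44-fold higher with 955. RPPH1 differed between the compounds by -1.64 (SE 0.31, adjusted p 0.00702), whereas the difference of RN7SK was -0.17, and whether these differences themselves differ was not tested. Under mitochondrial scaling 2 of the 4, RPPH1 and BCYRN1, still passed with 955 and 1, RPPH1, with SNS-032. Of all 5759 genes, 142 passed as higher with 955 at 6 h and 116 with SNS-032 on that scale.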

How the data were processed

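RNA sequencing libraries of 12 MOLT4 samples were made with an mRNA library kit, per the labels' protocols. The submitters' processing notes name DESeq2 and hg38 without a role. An F statistic and an average log2 CPM are not columns that DESeq2 writes, so the tool behind the deposited comparisons is uncertain, and the SEs below rest on reading F as a test with 1 numerator degree of freedom. The aligner, counter, strand use and gene filter are not given in the sources used here. The file holds the authors' own comparisons, and no values of single samples. Per the file headers, the deposited values are a log2 fold change and an average log2 CPM, an F statistic (a score), and a p-value with its FDR. Log base 2 was read from the values.

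Gene IDs were matched to RefSeq names (5727 of 5759). Implied SEs were obtained by dividing the size of each log2 fold change by the root of its F, with each gene's denominator degrees of freedom solved from F and p (median 23.3). Treated groups were compared by the difference of their fold changes, with the root mean square of both SEs, a t distribution, and Benjamini-Hochberg adjustment over 5759 genes. The number of tests, 28395, is the one that turned p over FDR into whole ranks (within 0.01) for 81.1% of 3083 values. These steps were checked on simulated data (Python 3.11.15, scipy 1.17.1). The simulated F was itself built from a fold change and its SE, so the check could not test whether the deposited F has that form. Alternatives were other thresholds, other SEs, and mitochondrial scaling with p-values recomputed and adjusted over 5759 genes. Genes named were the members, all list genes analysed and each member's 2 nearest genes. ZCWPW1 was added after its values were seen. Members and lists were chosen with earlier results of these data known. Depth is unknown. The RN7SK sequence is that of GENCODE 29 (GRCh38). The check of B cell markers is not reported here.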

Additional observations from a re-analysis of the deposited data

Results flagged for a closer look

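The effect of 955 against DMSO differed between 1 h and 6 h for all 3 members by the approximate contrast with adjusted p-values. RN7SK differed by 3.05 on the log2 scale (6 h minus 1 h, adjusted p 1.17e-07), MEPCE by -0.88 (adjusted p 1.63e-06) and CCNT1 by -0.72 (adjusted p 0.00596). Such a difference was seen for 84.7% of all genes analysed. RN7SK and CCNT1 did not pass at 1 h, so they are analysed through their values at 6 h, which these contrasts also use.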

How the results depend on the processing

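With no values per sample, single replicates could not be left out. No paired analysis was possible because the columns carry no replicate numbers. The number of members past the threshold at 1 h of 955 was 1, and 0 with a fold-change bound of 2 and 2 (MEPCE and CCNT1) with mitochondrial scaling. The number differing between 6 h and 1 h of 955 was 1, and 3 with mitochondrial scaling as well as with no bound on the difference. Of all genes analysed, 62.6% differed with the bound and 84.7% without it, under the authors' scaling. At 6 h against DMSO the number was 3 with each compound, and 2 with a fold-change bound of 2, where CCNT1 no longer passed. It stayed at 3 in the other alternatives run. Under mitochondrial scaling, 1766 of all 5759 genes passed as lower at 1 h of 955, 3825 at 6 h of 955 and 4151 with SNS-032. Those passing as higher were 16, 142 and 116. Shares of all genes under a fold-change bound of 2 are not given here. Nothing about the members is read from these counts. Between the compounds the number was 0 in each alternative run. Of 60 results of single members under alternative settings, 50 kept their direction and side of the threshold. Only mitochondrial scaling changed the fold change or difference itself. Under the other settings the direction could not turn, and only the call could. The direction turned in 2, both under mitochondrial scaling and neither called: RN7SK at 1 h of 955 became -0.40, and its difference between the compounds 0.10.

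Low counts cannot be judged without depth. The approximate contrasts assume a spread common to the treated groups.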
